A study of Mus musculus with 9 samples.

Results

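The genes described here are p53 and 9 genes that stand around it in the cell: the p53 gene Trp53, its inhibitor Mdm2, the cyclin-dependent kinase (CDK) inhibitor genes Cdkn1a and Cdkn2a, and the p53 target genes Ccng1, Sesn2, Zmat3, Trp53inp1, Bbc3 and Bax. They were taken by name from a given list, with no threshold on their values, and each symbol was matched to 1 Ensembl identifier, giving 10 of the 54838 genes in the deposited table. All 10 had counts in every library and passed the filter on low counts, as 13153 genes did.

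RNA was sequenced from 9 cultures of PDA530 Met, a mouse pancreatic ductal adenocarcinoma line whose source was a male KPC mouse with metastasis to the liver and a mixed 129/SvJae and C57Bl/6 background. KPC mice are a model of pancreatic cancer that expresses mutant p53 in the pancreas, so every group, the controls included, descends from the same p53-mutant tumour. The knockout clone (E4) was made by CRISPR/Cas9 against Zdhhc20, a gene for an enzyme that attaches palmitate to proteins. The control clone (C5) went through nucleofection with the same guide RNAs, kept an unedited gene and was grown from a single cell, and the parental line were the line itself, which the design text also writes as PDA50 Met. Each group had 3 replicates of untreated cells grown in DMEM with 10% foetal bovine serum. Knockout and control are each 1 clone, so the lost gene and the history of that clone cannot be told apart. The labels call the replicates biological and do not say how the cultures were separated, so p-values measure the spread between these cultures. Gene counts separate neither the mutant from a normal Trp53 transcript nor the products of Cdkn2a, p16Ink4a and p19Arf.

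The p53 protein is a transcription factor that is kept scarce by MDM2, an enzyme that marks it for destruction, and is released from MDM2 when DNA is damaged or an oncogene is active. Freed p53 switches on Cdkn1a, whose product p21 holds CDKs and stops the cell cycle, and genes such as Bbc3 and Bax that open the mitochondria to cell death. It also switches on Mdm2 itself, which closes a feedback loop. In pancreatic tumours p53 and CDKN2A are among the genes most often altered, and mutant p53 protein usually loses the ability to switch on these targets. Several of them, Cdkn1a, Sesn2, Bbc3 and Trp53inp1 among them, are also known to be driven by factors other than p53, such as stress-response regulators.

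The promoters are shown first, since p53 recognises its targets by DNA sequence, at sites that can lie near the start of a gene or outside the windows used here. A p53 response element is a pair of copies of the consensus decamer (3 purines, a C, 2 bases that are A or T, a G and 3 pyrimidines), set apart by a spacer of 0 to 13 bases. The decamer reads the same on both strands, and windows from 250 bases before to 50 bases after each gene start were taken from RefSeq on build GRCm38.p6. Windows were found for 8 of the 10 genes, the others being Zmat3 and Trp53inp1. An exact decamer stood in a window of each of 5 genes. Of all 32851 windows, over 27025 genes, 8.36% held an exact decamer. The first count is of genes and the second of windows, and Cdkn1a, Cdkn2a and Bbc3 had several windows each. The following stretches have decamers in capitals. For Cdkn1a, Ccng1 and Bax these are the closest pair, which means the fewest mismatches at any allowed spacer. The first decamer of Ccng1 and of Bax carries the mismatches given below. For Mdm2 and Trp53 the capitals are the single exact decamer. Each stretch has 15 bases on either side of the capitals and is printed 5′ to 3′ on the strand of the gene.
Cdkn1a, chr17:29090891-29090952, plus strand: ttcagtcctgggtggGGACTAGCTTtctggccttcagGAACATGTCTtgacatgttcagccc
Ccng1, chr11:40755447-40755496, minus strand: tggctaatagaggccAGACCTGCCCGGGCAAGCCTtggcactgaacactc
Bax, chr7:45467075-45467129, minus strand: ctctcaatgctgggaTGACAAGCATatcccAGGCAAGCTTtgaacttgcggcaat
Mdm2, chr10:117710920-117710959, minus strand: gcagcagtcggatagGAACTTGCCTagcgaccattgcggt
Trp53, chr11:69580269-69580308, plus strand: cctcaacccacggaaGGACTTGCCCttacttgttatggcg

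In 1 of its 2 windows, the one printed in part above, Cdkn1a held 2 exact decamers with a spacer of 12 bases. Such a pair without mismatch was found in 24 windows, or 0.0731% of all. In the printed stretch the 10 bases right after the second decamer differ from the consensus only at their first base. The other Cdkn1a window, chr17:29093519-29093818, held 0 exact decamers, and its closest pair had 5 mismatches. Ccng1 had a pair with 1 mismatch and a spacer of 0, and 0.627% of windows had a pair at least as close. In Bax the closest pair had 2 mismatches and a spacer of 5, and 4.09% of windows came as close. Mdm2 and Trp53 held a single exact decamer. The windows of Cdkn2a, Sesn2 and Bbc3 held none, which says only that these letters are not in these windows. A match is a description of letters and was not tested as a binding site.

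Total counts ran from 16525869 to 23192701 per library. Zdhhc20 stood at 33.9 to 42.5 counts per 1000000 (CPM, scaled by the TMM method of edgeR) in the knockout clone, 85.8 to 123 in the control clone and 75.3 to 90.7 in the parental line. Its call in the knockout clone was lower against both (log2 fold change -1.53 with SE 0.15 and adjusted p = 6.97e-05, then -1.12 with SE 0.15 and adjusted p = 0.000585). All 7 duct epithelial markers had counts, with a summed level of 4318 to 4446 CPM in the knockout clone, 7008 to 9379 in the control clone and 6696 to 8165 in the parental line. Krt8, Krt18, Krt19 and Cdh1 were called lower against the control clone and the parental line alike. Krt7 was called lower against the control clone and not against the parental line (1.07-fold), and Sox9 in neither (0.769-fold and 1.08-fold). Epcam, a defining epithelial gene, went the other way at a low level, with 0.584 to 0.635 CPM in the knockout clone and 0.118 to 0.241 CPM in the others, where 3 counts per library are 0.129 to 0.182 CPM (log2 fold change 1.96, adjusted p = 0.00393, and 1.58, adjusted p = 0.0139). Markers of leukocytes (6 genes, with Cd3e and Adgre1 among those at 0), endothelium (4 genes), fibroblasts (7 genes, Col1a2, Col3a1, Dcn and Lum at 0) and hepatocytes (5 genes, Serpina1a at 0) each summed to at most 4.0 CPM in any library. Within these low sums Pdgfra (0.526 to 3.56 CPM) and Ttr (0 to 2.35 CPM) were called lower in the knockout clone against both, and Cd68 (0.781 to 2.66 CPM) against the control clone. The part of these marker differences in the results below was not tested. In these bulk samples fewer cells of a kind and less RNA per cell cannot be told apart.

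The knockout clone had more Cdkn1a RNA than either other group, by 1.79-fold over the control clone and 1.88-fold over the parental line, and slightly more Mdm2 RNA, by 1.25-fold and 1.20-fold. The Mdm2 call against the parental line held in 6 of 17 alternatives. Trp53 RNA was 1.51-fold higher than in the control clone, a call that held in 12 of 17 alternatives. Against the parental line Trp53 was not called (1.36-fold). None of the 10 genes was called lower in the knockout clone in either comparison, beside 24.2% and 18.3% of all tested genes. The genes of cell death, Bbc3 and Bax, and the targets Ccng1, Sesn2, Zmat3 and Trp53inp1 did not pass the test in either. Calls are at an adjusted p under 0.05 in edgeR's quasi-likelihood test with Benjamini-Hochberg adjustment over all 13153 genes, the source of each adjusted p below unless another is named. Both comparisons use the same 3 knockout libraries and 1 shared estimate of the spread.

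**Figure D1:**
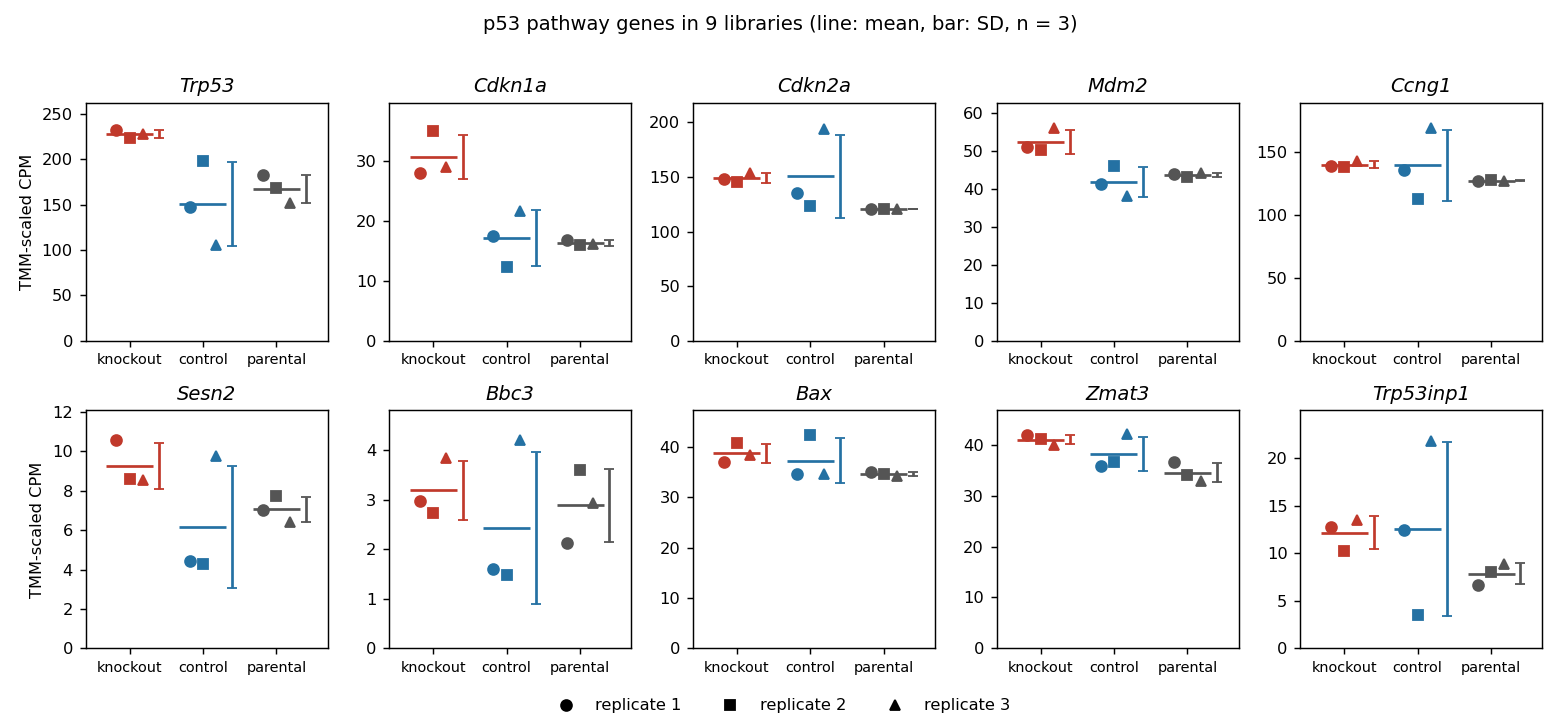
Level of each gene in TMM-scaled CPM (vertical axis, from 0) in the knockout clone (red), control clone (blue) and parental line (grey). Points are single libraries with a shape for each replicate, lines are means and bars the SD over 3 libraries; the red points stand above all 6 others for Trp53, Cdkn1a and Mdm2, and the blue points are widely spread for Trp53inp1 (3.51 to 21.8 CPM).

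Trp53 (ENSMUSG00000059552, chr11:69580359-69591873, plus strand, GRCm38) encodes the transcription factor itself. Its level was 232, 224 and 228 CPM in the 3 knockout libraries, 148, 198 and 106 CPM in the control clone, and 183, 168 and 152 CPM in the parental line. All knockout libraries lay above all 6 others, and the control and parental libraries overlapped. The means were 228 ± 4.13, 151 ± 46.1 and 167 ± 15.5 CPM (SD, n = 3 each). Against the control clone Trp53 was called higher (log2 fold change 0.60, SE 0.18, adjusted p = 0.0267). Against the parental line the difference was 0.45 (SE 0.18, 95% interval 0.03 to 0.86, adjusted p = 0.0943), which was not called. It was called in 4 of 17 alternatives, among them those without control replicate 2 (adjusted p = 0.0117) and without control replicate 3 (adjusted p = 0.00957), over a range of 0.38 to 0.51 and adjusted p up to 0.248. The call against the control clone was lost without any single knockout library, without control replicate 1 and in a fit of those 2 groups alone (0.58 to 0.62, adjusted p = 0.0522 to 0.0746). Over the 17 alternatives the difference from the control clone ran from 0.40, without control replicate 3, to 0.84, without control replicate 2. Between the control clone and the parental line the difference was -0.15 (SE 0.18, adjusted p = 0.603).

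Reads of Trp53 could be shared with its processed pseudogene Trp53-ps, which had 528 counts over the 9 libraries against 30647 for Trp53. Wrap53, which starts 104 bases away on the other side of the promoter shown above, had fitted differences of 0.23 (adjusted p = 0.342) and 0.31 (adjusted p = 0.227) against the control clone and the parental line, neither of them called. By the distance between centred log2 CPM values over the 9 libraries, the genes with the pattern most like that of Trp53 were Nhp2 (distance 0.16), Uhrf1 (0.16) and Wdr75 (0.17), where the median gene was at 1.33.

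Mdm2 (ENSMUSG00000020184, chr10:117688875-117710758, minus strand) encodes the ubiquitin ligase that holds p53 down and is itself a p53 target. The knockout libraries had 51.1, 50.2 and 56.1 CPM, the control libraries 41.4, 46.0 and 38.2 CPM and the parental libraries 44.0, 43.1 and 44.2 CPM. Again every knockout library was above all 6 others. Mdm2 was called higher against the control clone (log2 fold change 0.33, SE 0.09, adjusted p = 0.0140) and against the parental line (0.26, SE 0.09, adjusted p = 0.0466). Counted over the 17 alternatives in scaling, filter, test and libraries, the first call held in 16 and was lost without knockout replicate 3 (0.28, adjusted p = 0.0603). A minimum size of 1 on the log2 scale, set beside the test, ends this and every other call among the 10 genes. The second held in 6 of 17 and was lost, among others, without any single knockout or parental library and without control replicate 1 (0.21 to 0.29, adjusted p up to 0.166 over the alternatives). Control clone and parental line differed by -0.06 (adjusted p = 0.636).

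Cdkn1a (ENSMUSG00000023067, chr17:29090976-29100727, plus strand) encodes p21, the CDK inhibitor through which p53 halts the cycle before DNA replication. It stood at 28.0, 34.9 and 29.0 CPM in the knockout clone, at 17.4, 12.3 and 21.6 CPM in the control clone and at 16.8, 15.9 and 16.1 CPM in the parental line. The lowest knockout library was above the highest of the other 6, and the parental libraries lay inside the range of the control libraries. Means were 30.6 ± 3.75, 17.1 ± 4.67 and 16.3 ± 0.443 CPM (SD, n = 3 each). Cdkn1a was called higher against the control clone (log2 fold change 0.84, SE 0.18, 95% interval 0.44 to 1.25, adjusted p = 0.00476) and against the parental line (0.91, SE 0.18, 95% interval 0.51 to 1.32, adjusted p = 0.00477). Both calls held in 17 of 17 alternatives in scaling, filter, test and libraries, and neither with a minimum size of 1 on the log2 scale. The 17 gave log2 fold changes of 0.66 to 1.04 and 0.81 to 0.97, with adjusted p of at most 0.0223 and 0.0245. The control clone differed from the parental line by 0.07 (SE 0.18, 95% interval -0.34 to 0.48, adjusted p = 0.813).

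The unnamed transcript on the opposite strand of Cdkn1a held 10 counts in all libraries together, against 3605 for Cdkn1a. Neither of the nearest tested neighbours was called higher in both comparisons. For Rab44, the nearer, the control clone was the group apart, at 7.49 on the log2 scale over the parental line (adjusted p = 0.00364). The knockout clone stood at -7.49 from the control clone (adjusted p = 0.00129) and at 0.00 from the parental line. Whether Rab44 moved with Cdkn1a in the knockout clone cannot be read from a difference that lies in the control clone. Srsf3, a splicing factor gene, was called higher against the control clone (0.48, adjusted p = 0.00845) and stood at 0.06 against the parental line (adjusted p = 0.735). The genes with the pattern most like that of Cdkn1a were Tiparp (distance 0.35), Wdfy1 (0.44) and Cnnm2 (0.47), against 1.63 for the median gene.

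Cdkn2a (ENSMUSG00000044303, chr4:89274471-89294653, minus strand) encodes p16Ink4a, which inhibits CDK4 and CDK6, and p19Arf, which inhibits MDM2. It was expressed in every library, with 148, 145 and 154 CPM in the knockout libraries, 135, 123 and 194 CPM in the control libraries and 121, 121 and 121 CPM in the parental libraries. The parental libraries were below all 6 clone libraries, and the knockout libraries lay inside the range of the control clone. No comparison was called, with a log2 fold change of -0.02 against the control clone (SE 0.15, adjusted p = 0.942), 0.30 (SE 0.15, adjusted p = 0.149) for knockout against parental, and 0.31 (SE 0.15, adjusted p = 0.158) for control against parental. The 95% interval of the first, -0.34 to 0.31, leaves room for a modest difference in either direction. Without control replicate 3 that difference became 0.21 and was called (adjusted p = 0.0264). Its neighbour Cdkn2b, the gene of the related inhibitor p15Ink4b, had 41.9 to 48.8 CPM in the knockout clone, 32.7 to 58.9 in the control clone and 37.9 to 39.4 in the parental line, with no call. Mtap, a gene of methionine salvage on the other side, was called higher in the knockout clone against the control clone (0.34, adjusted p = 0.0345) and the parental line (0.34, adjusted p = 0.0436).

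**Figure D2:**
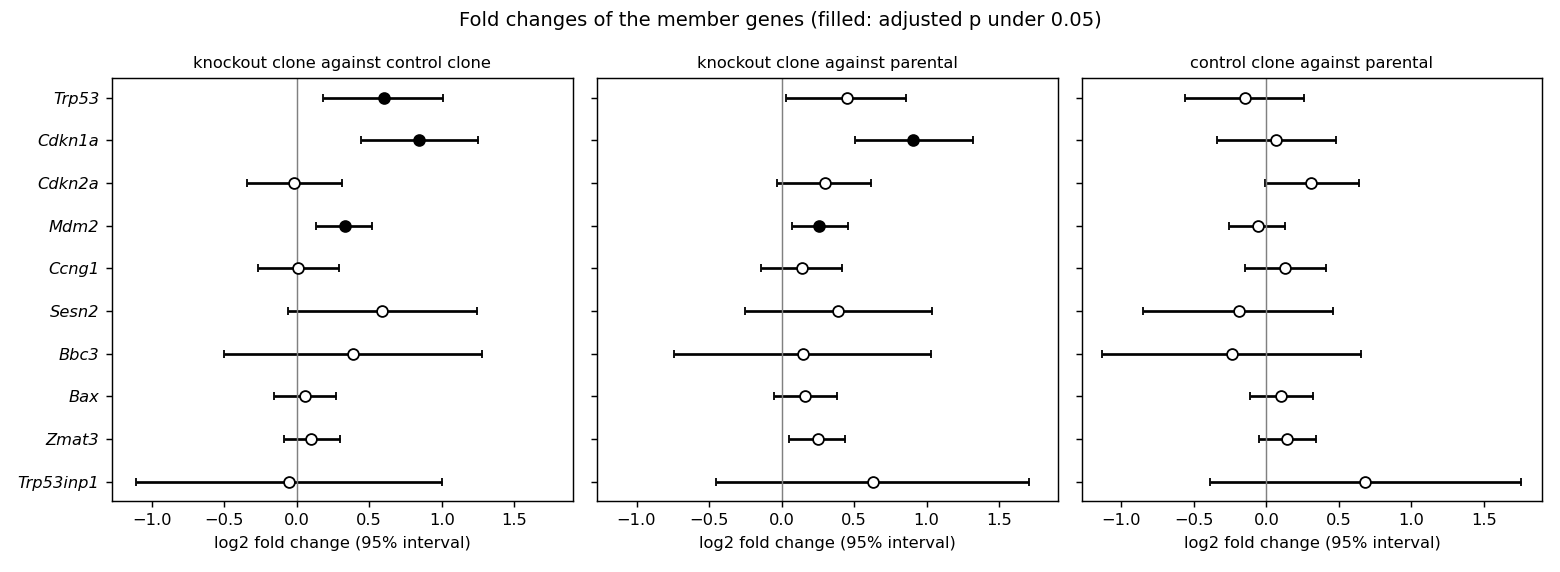
Log2 fold change (horizontal axis) of each gene in the 3 comparisons, with 95% intervals from edgeR's quasi-likelihood fit as bars and filled points for an adjusted p under 0.05. Cdkn1a and Mdm2 are filled in both panels of the knockout clone, Trp53 in the first, and no point is filled for the control clone against the parental line.

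Of the targets outside cell death, Ccng1 (ENSMUSG00000020326, chr11:40748552-40755311, minus strand), the gene of cyclin G1, varied little outside the control clone. It had 139, 138 and 143 CPM in the knockout libraries, 136, 113 and 169 CPM in the control libraries and 127, 128 and 127 CPM in the parental libraries. The knockout libraries were all above the parental ones and inside the range of the control clone. The differences were 0.01 (SE 0.12, 95% interval -0.27 to 0.29, adjusted p = 0.974) and 0.14 (SE 0.12, 95% interval -0.14 to 0.42, adjusted p = 0.439).

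Sesn2 (ENSMUSG00000028893, chr4:132492032-132510501, minus strand) encodes sestrin 2, a stress protein that restrains the growth kinase mTORC1. Its level was 10.6, 8.62 and 8.53 CPM in the knockout libraries, 4.45, 4.28 and 9.76 CPM in the control libraries and 7.03, 7.72 and 6.41 CPM in the parental libraries. Control replicate 3 stood among the knockout libraries and the other control libraries below everything else. The differences, 0.59 (SE 0.29, adjusted p = 0.128) and 0.39 (SE 0.29, adjusted p = 0.329), were not called. Without control replicate 3 both were called (1.08, adjusted p = 0.000677, and 0.40, adjusted p = 0.0419).

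Zmat3 (ENSMUSG00000027663, chr3:32334792-32366014, minus strand) encodes an RNA-binding zinc finger protein. It had 41.8, 41.1 and 40.0 CPM in the knockout libraries, 35.9, 36.6 and 42.0 CPM in the control libraries and 36.6, 34.1 and 32.9 CPM in the parental libraries. Control replicate 3 was again the library that reached the knockout range. The differences of 0.10 (SE 0.09, adjusted p = 0.367) and 0.25 (SE 0.09, 95% interval 0.05 to 0.44, adjusted p = 0.0564) were not called, and the second was called in 4 of 17 alternatives.

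Trp53inp1 (ENSMUSG00000028211, chr4:11156431-11174379, plus strand) encodes a nuclear protein that takes part in the p53 stress response. The control clone spanned the whole range of this gene, at 12.4, 3.51 and 21.8 CPM. The knockout libraries had 12.8, 10.2 and 13.5 CPM and the parental libraries 6.65, 8.07 and 8.88 CPM, which did not overlap. With this spread the differences were -0.05 (SE 0.47, 95% interval -1.11 to 1.0, adjusted p = 0.940) and 0.63 (SE 0.48, 95% interval -0.45 to 1.71, adjusted p = 0.350). Neither was called, and the second was called in 2 of 17 alternatives (0.52 to 0.75 over all 17, adjusted p from 0.00376 to 0.547).

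The cell-death genes were at moderate and low levels. Bax (ENSMUSG00000003873, chr7:45461697-45466898, minus strand), which encodes the protein that perforates the mitochondrial outer membrane, had 37.1, 40.8 and 38.4 CPM in the knockout libraries, 34.7, 42.5 and 34.7 CPM in the control libraries and 35.1, 34.7 and 34.2 CPM in the parental libraries. It differed by 0.06 (SE 0.10, 95% interval -0.16 to 0.27, adjusted p = 0.662) and 0.16 (SE 0.10, 95% interval -0.05 to 0.38, adjusted p = 0.230). Bbc3 (ENSMUSG00000002083, chr7:16308393-16318205, plus strand), the gene of PUMA, which releases BAX for its task, had 2.98, 2.73 and 3.85 CPM in the knockout libraries, 1.61, 1.49 and 4.2 CPM in the control libraries and 2.12, 3.60 and 2.94 CPM in the parental libraries. All groups overlapped for Bbc3, with 25 to 80 counts per library and an SD of log2 CPM of 0.80 in the control clone. The differences were 0.39 (SE 0.40, -0.50 to 1.28, adjusted p = 0.456) and 0.15 (SE 0.39, -0.74 to 1.03, adjusted p = 0.807). Without control replicate 3 the difference from the control clone was 1.03 and was called (adjusted p = 0.0167).

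Read together, 3 of the 10 genes were higher by this test, and 0 lower, when the knockout clone was set against the control clone. Of all tested genes 42.9% were called in that comparison, 18.7% higher and 24.2% lower. Against the parental line 2 of 10 were called higher and 0 lower, where 31.4% of all genes were called, 13.1% higher and 18.3% lower. Called higher against both were 2 of 10, Cdkn1a and Mdm2, beside 8.19% of all genes. Called lower against both were 0 of 10, beside 13.4%. With 10 genes, these shares of calls are of the order of the background. The median log2 fold change of the 10 genes was 0.21 and 0.28, with 8 and 10 of them fitted above 0, where the median of all tested genes was -0.02 and -0.01.

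Every knockout library lay above all 6 others for 3 of the 10 genes (Trp53, Cdkn1a and Mdm2), as for 15.6% of all tested genes. The knockout libraries were above all control libraries for the same 3 genes, with 24.0% of all genes so placed. Above all parental libraries they lay for 9 of the 10, all but Bbc3, where 29.8% of all genes were so placed. In a fit of the 6 knockout and parental libraries alone, in which the control clone adds nothing to the spread, 9 of the 10 genes were called higher (26.0% of all genes were called higher there), again all but Bbc3. These log2 fold changes ran from 0.14 for Ccng1 to 0.91 for Cdkn1a. The adjusted p in that fit was 0.0299 for Ccng1, 0.000545 for Cdkn2a and 0.000303 for Trp53.

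None of the 10 genes passed the test when the control clone was set against the parental line, where 21.4% of all genes were called, 10.4% higher and 11.0% lower. By the same test 0 had an unadjusted p under 0.05, the lowest being 0.0585 for Cdkn2a, and DESeq2 and limma voom also called 0. Without control replicate 2, Trp53 was called lower (-0.40, adjusted p = 0.0464) and Cdkn2a (0.44, adjusted p = 0.0271) and Trp53inp1 (1.12, adjusted p = 0.00700) higher, and without control replicate 3 Sesn2 (-0.69, adjusted p = 0.0124) and Bbc3 (-0.88, adjusted p = 0.0455) were called lower. The median was 0.09 for the 10 genes and 0.01 for all genes. This comparison shares its libraries with both others.

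The control clone was the group in which these genes varied most, with the largest SD of log2 CPM for each of the 10, and its replicates 2 and 3 stood at opposite ends for most of them. Replicate 3 had 6.21 times the Trp53inp1 level of replicate 2, 2.82 times the Bbc3 level, 2.28 times Sesn2, 1.76 times Cdkn1a, 1.58 times Cdkn2a and 1.5 times Ccng1. In the same library Trp53 was at 0.535 times its level in replicate 2, Bax at 0.817 and Mdm2 at 0.830. A log2 difference as large as that of Trp53inp1 between these libraries, 2.60, was reached by 0.874% of tested genes, and one as large as that of Trp53, 0.90, by 16.7%. Of the 77 tested genes on the 5 lists of the pathway described below, 14 differed between these libraries by 1 or more on the log2 scale, 9 higher and 5 lower in replicate 3, or 18.2% beside 13.5% of all tested genes. The widest were Ddit4, a stress-induced inhibitor of mTORC1 (3.02), Bmf, a cell-death gene of the BCL2 family (2.64), and Plk2 (-2.52). The SD of log2 CPM of Trp53inp1 was 1.33 for the control clone, 0.22 for the knockout clone and 0.21 for the parental line. The median SD of all tested genes was 0.24, 0.09 and 0.10 in that order. Why these libraries differ was not tested. Without control replicate 3, 6 of the 10 genes were higher by the test than in the control clone (20.6% of all genes).

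**Figure D3:**
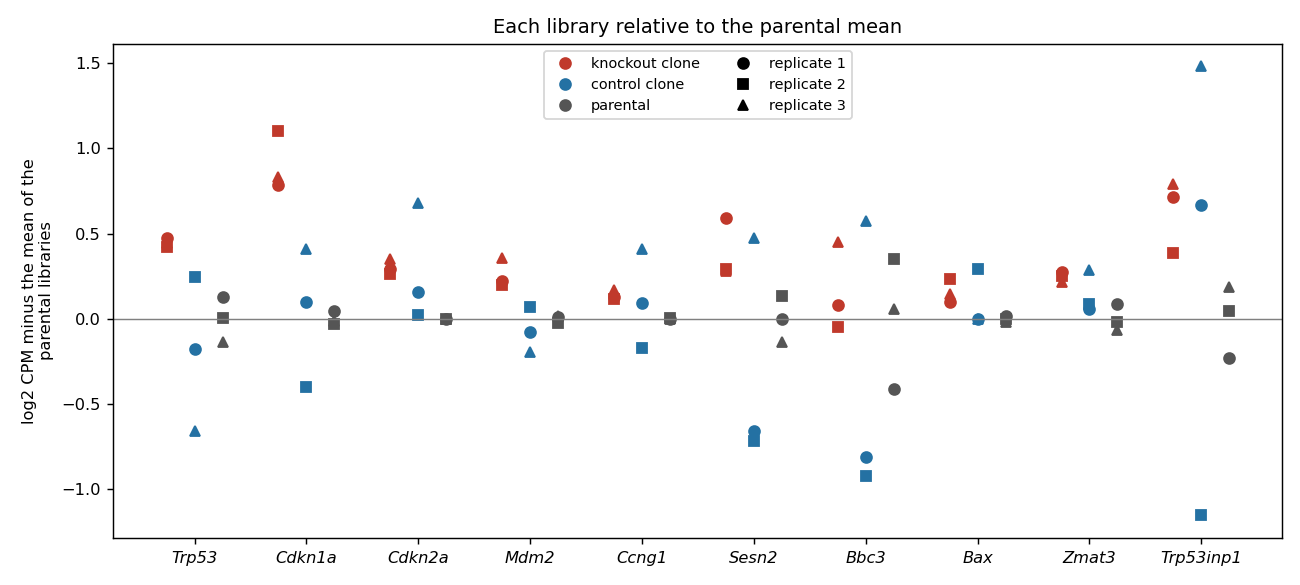
Log2 CPM of each library minus the mean of the 3 parental libraries (vertical axis) for each gene, coloured by group with a shape for each replicate. The control triangle (replicate 3) and square (replicate 2) lie on opposite sides for most genes, with Trp53 low and Trp53inp1 high in replicate 3, while the knockout libraries lie close together.

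Levels between genes were compared per kilobase of annotated exon, as mean CPM per kilobase. In the parental line the order was Cdkn2a (103), Trp53 (41.4), Ccng1 (36.3), Bax (22.0), Mdm2 (8.61), Cdkn1a (4.58), Zmat3 (3.02), Sesn2 (2.03), Bbc3 (1.36) and Trp53inp1 (1.22). Bbc3 (SD 0.348) and Trp53inp1 (SD 0.175) were closer to each other than their spread, and all other neighbours were further apart than 1 SD of either. In the knockout clone Cdkn1a rose to 8.63 per kilobase, close to Mdm2 at 10.3, and Trp53 stood at 56.4, against 39.9 for Ccng1. In the control clone Trp53 (37.3, SD 11.4) and Ccng1 (39.7, SD 8.10) were within their spread. Transcripts of Cdkn2a were thus the most abundant of the 10 genes per kilobase in each group, at 127 in the knockout clone and 128 in the control clone.

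The other genes of the pathway were taken as 5 lists with 88 genes, of which 77 could be tested. Against the control clone 17 were called higher and 14 lower, and against the parental line 17 higher and 8 lower. These are 40.3% and 32.5% of the 77, beside 42.9% and 31.4% of all tested genes. Their medians were 0.07 and 0.09. Between control clone and parental line 11 were called higher and 8 lower, with a median of 0.01, or 24.7% of the 77 beside 21.4% of all. The share of calls in the lists as a whole was thus near the background. The median of all tested genes was between -0.02 and 0.01 in these comparisons.

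Among the 6 other CDK inhibitors, of which 5 were tested, none was called higher and 2 were called lower in each comparison of the knockout clone, with medians of -0.40 and -0.30. Of all tested genes 24.2% and 18.3% were called lower, and 2 of 5 is of that order. Cdkn2d, the gene of p19Ink4d, was lower against both (-1.34, SE 0.15, adjusted p = 0.000141, and -1.03, SE 0.15, adjusted p = 0.000955). It had 9.38, 11.6 and 8.58 CPM in the knockout libraries, 26.1, 28.0 and 20.7 CPM in the control libraries and 18.7, 21.3 and 20.2 CPM in the parental libraries. Cdkn1b, the gene of p27, was lower against the control clone (-0.40, adjusted p = 0.0221), and Cdkn2c, the gene of p18Ink4c, against the parental line (-0.78, adjusted p = 0.0109). Cdkn1c had at most 1 count in any library. In the control clone against the parental line 0 of the 5 were called, with a median of 0.25, where 21.4% of all tested genes were called.

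Of the 18 tested members among 20 p53 relatives and regulators, 8 were called higher and 1 lower against the control clone, and 4 higher and 1 lower against the parental line, with medians of 0.19 and 0.03. These calls are 9 and 5 of the 18, beside 42.9% and 31.4% of all tested genes. The control clone differed from the parental line for 8 of them, 2 higher and 6 lower, or 44.4% beside 21.4% of all, with a median of -0.15. Higher in the knockout clone against both were Daxx (0.83, adjusted p = 9.9e-05, and 0.60, adjusted p = 0.000884), which encodes a histone chaperone that binds MDM2, and the ubiquitin ligase genes Huwe1 (0.74 and 0.36) and Trim24 (0.26 and 0.37). Ppp1r13b, which encodes the p53-binding protein ASPP1, was lower against both (-1.63, adjusted p = 8.26e-05, and -0.98, adjusted p = 0.00210). The p53 relatives Trp63 (1 to 5 counts per library) and Trp73 (0 or 1 count) were too low to test.

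Calls among the 36 other p53 targets went both ways. Among 31 tested, 5 were called higher and 8 lower against the control clone (median -0.07), and 8 higher and 4 lower against the parental line (median 0.13). These calls are 41.9% and 38.7% of the list, beside the same 42.9% and 31.4%. Control clone against parental line gave 4 higher and 1 lower (16.1%, beside 21.4% of all, median 0.20). Plk2, which encodes a stress-induced polo-like kinase, was apart in the knockout clone at 139, 147 and 142 CPM against 22.2, 96.2 and 16.7 CPM in the control clone and 50.6, 43.7 and 38.7 CPM in the parental line. The log2 fold change was 1.67 against the control clone (SE 0.54, adjusted p = 0.0310) and 1.68 against the parental line (SE 0.54, adjusted p = 0.0391), and control replicates 2 and 3 again lay far apart. Plk3 was higher too (0.72, adjusted p = 0.0147, and 0.89, adjusted p = 0.00819), as was Ptpn14 (0.95 and 0.42), a tyrosine phosphatase gene.

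Phlda3, which encodes an inhibitor of the kinase AKT, went the other way. It had 12.5, 18.4 and 15 CPM in the knockout libraries, 38.7, 34.1 and 38.4 CPM in the control libraries and 36.1, 38.5 and 40.1 CPM in the parental libraries, so it fell by both tests, at -1.28 (SE 0.14, adjusted p = 0.000108) and, against the parental line, -1.32 (SE 0.14, adjusted p = 0.000152). Ei24 (-1.01 and -0.86), Rps27l (-0.92 and -0.66) and Plxnb2 (-0.56 and -0.37) were also called lower against both. Tnfrsf10b, which encodes a death receptor, was highest in the control clone, at 90.1 to 96.6 CPM against 52.8 to 56.7 in the knockout clone and 45.1 to 49.8 in the parental line, and was called apart from both there. Fas, Eda2r and Dram1 were too low to test, with at most 10 counts in a library, and Trp53i11 and Rprm had 0 counts in every library, each of which allows up to the level of 3 counts given above.

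**Figure D4:**
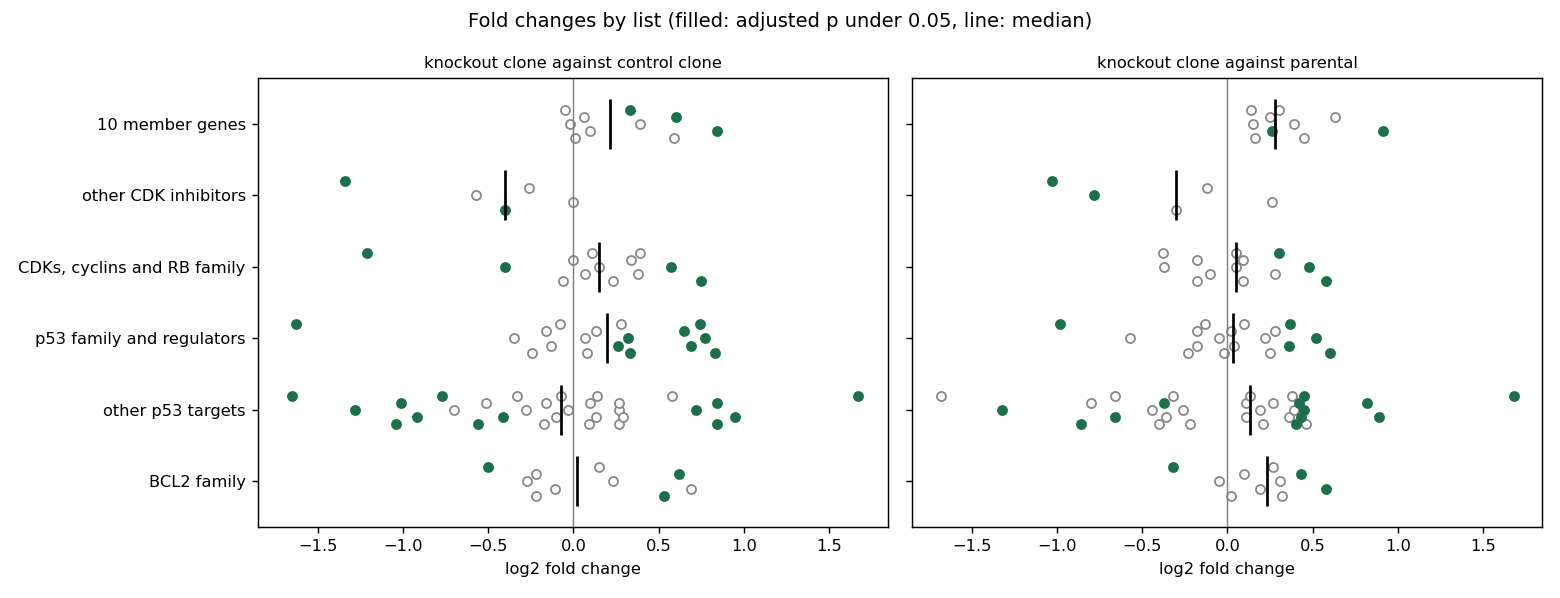
Log2 fold change (horizontal axis) of each tested gene of the 10 and of 5 further lists, knockout against control clone (left) and against parental line (right); filled points have an adjusted p under 0.05 and the bar is the median of a row. The other p53 targets spread to both sides of 0, and no point of the 10 genes lies far below 0.

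Position on the chromosomes was set beside these values. The median log2 fold change of the 748 tested genes on chromosome 9 was -0.53 in both comparisons of the knockout clone. Cdkn2d, Ei24 and Rps27l lie on chromosome 9, and the part of that chromosome's level in their difference was not tested. Plk2 lies on chromosome 13, with medians of 0.33 and 0.12, and Ppp1r13b on chromosome 12, with medians of -0.25 and 0.02, and their part was not tested either. None of the 10 genes lies there. Their chromosomes, 3, 4, 7, 10, 11 and 17, had medians between -0.06 and 0.21, the highest being those of chromosome 17, which carries Cdkn1a, at 0.14 and 0.21. Daxx lies on chromosome 17 too. The part of that chromosome's level in the differences of Cdkn1a and Daxx was not tested.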

How the data were processed

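The values are expected counts per gene that the authors made with RSEM 1.3.0 and STAR 2.5.2 on build GRCm38 (DESeq2 1.10.1 is named too), per the submitters' processing notes, and deposited as 1 table for all 9 libraries. All values were whole, so rounding changed 0 of them. The annotation release and strand setting are not given in the sources used here; RSEM divides reads that match several genes by an estimate. Symbols, positions and exon lengths come from GENCODE M21 (GRCm38), which held 54809 of 54838 identifiers.

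Counts were tested with glmQLFit and glmQLFTest of edgeR 4.0.16 in R 4.3.3, after filterByExpr (minimum count 10, minimum total 15) and TMM scaling, with all 9 libraries in 1 fit and the group as the only term. SE is the log2 fold change divided by the root of F. CPM are TMM-scaled, log2 CPM uses a prior count of 2, and the level of 3 counts covers counting error only. No libraries matched closely enough to be 1 library deposited again (lowest chi-square per gene of a pair 5.01). The test was tried on simulated data first.

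Named are the 10 genes, the genes of the 5 lists that one group held apart from both others, each time by 1 or more on the log2 scale, those with 0 counts everywhere, and the 3 genes nearest in pattern to Trp53 and Cdkn1a. Other named genes were chosen after their values were seen. The 10 genes and the lists (other CDK inhibitors, CDKs with cyclins and the RB family, p53 family and regulators, other p53 targets, BCL2 family, cell type markers) were chosen with earlier results of these data known.

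The alternatives were DESeq2 size factors or total counts for scaling, leaving out the filter or asking for a mean of 5 CPM, DESeq2 1.42.0 or voom of limma 3.58.1 for testing, a block for the replicate number, a fit of the compared groups alone, removal of each library, and a minimum size of 1 on the log2 scale.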

Additional observations from a re-analysis of the deposited data

How the results depend on the processing

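Of 507 values of the 10 genes under other settings, 446 kept direction and side of the threshold, 23 became called with the same sign, 17 lost a call and 21 changed sign. Of the latter, 1 also became called (Cdkn2a against the control clone, without control replicate 3), and none was among the called values of Cdkn1a, Mdm2 or Trp53 in the knockout clone. A minimum size of 1 on the log2 scale left 0 genes called of 3 against the control clone, 0 of 2 against the parental line and 0 of 2 apart from both, and of the 5 lists 8 of 31, 3 of 25 and 0 of 19 in the 3 comparisons. Total counts, limma voom and the replicate block each left 1 called against the parental line and 1 apart from both, Cdkn1a. Of all tested genes 31.1%, 30.9% and 30.0% were called against the parental line in these fits. A fit of only the groups compared called 9 of the 10 genes and 48 list genes against the parental line, where 53.5% of all tested genes were called. Between control clone and parental line such a fit called 11 list genes, beside 11.8% of all tested genes. The number of genes tested and the libraries that set the spread differ there.

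With 1 library left out, the counts of the 10 genes ran from 1 to 6 against the control clone, 1 to 6 against the parental line, 0 to 3 for control clone against parental line and 1 to 6 apart in 1 group. The list counts ran from 20 to 42, 14 to 38 and 9 to 37. Of all tested genes 32.1% to 53.5% were called against the control clone in these fits and 18.7% to 42.7% against the parental line. Between control clone and parental line the share was 11.0% to 30.8%. The lowest count of 1 against the control clone came without knockout replicate 3 and the highest of 6 without control replicate 3.

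Values near 0 changed sign. Against the control clone Cdkn2a became 0.02 with total counts, 0.00 without a filter, 0.01 with voom, 0.00 with the replicate block and 0.01 in a fit of only these groups, and ran from -0.14 to 0.21 with 1 library left out. Ccng1 became -0.01 at a mean of at least 5 CPM and ran from -0.12 to 0.17. Trp53inp1 became 0.24 with voom and 0.11 with the block and ran from -0.48 to 0.58. Against the parental line Bbc3 ran from -0.04 to 0.33. For control clone against parental line Trp53 ran from -0.40 to 0.05, Cdkn1a from -0.13 to 0.25, Ccng1 from -0.03 to 0.26 and Bax from 0.00 to 0.15. The cause was not tested. Bbc3 has no value at a mean of at least 5 CPM.

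Correlations of the deviations of libraries with the same replicate number ran from -0.134 to 0.212, and not every pair was above 0.1. The labels tie the number to no shared day or batch, so it was not taken to pair the libraries. With it as a block, 3 of the 10 genes were called against the control clone, 1 against the parental line and 0 between the controls. Of all tested genes 42.0%, 30.0% and 18.9% were called there. Bbc3 had the fewest counts of the 10 genes, 25 to 80 per library.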

Other observations

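The partners of these genes in the cell cycle and in cell death were measured too. Of 13 tested CDK, cyclin and RB family genes, 2 were called higher and 2 lower when the knockout clone was set against the control clone (median 0.15), and 3 higher and 0 lower against the parental line (median 0.05). These calls are 30.8% and 23.1% of the list, beside 42.9% and 31.4% of all tested genes. Ccne1, the gene of cyclin E1, whose kinase p21 inhibits, was higher against both (0.75, SE 0.17, adjusted p = 0.00691, and 0.58, SE 0.17, adjusted p = 0.0311), as was Rb1, the gene of the retinoblastoma protein (0.57, SE 0.08, adjusted p = 0.000473, and 0.30, SE 0.08, adjusted p = 0.0178), by edgeR's quasi-likelihood test. Rb1 had 62.8, 62.8 and 64.8 CPM in the knockout libraries, 39.3, 46.4 and 43.0 CPM in the control libraries and 50.8, 50.7 and 53.3 CPM in the parental libraries, so that the 3 groups did not overlap. The cyclin D genes Ccnd1 (-0.40, adjusted p = 0.00871) and Ccnd2 (-1.21, adjusted p = 0.00241) were lower against the control clone. Both rose in the control clone against the parental line (0.45, adjusted p = 0.0106, and 0.83, adjusted p = 0.0287), among 2 genes called higher and 1 lower there (23.1%, beside 21.4% of all tested genes, median -0.18).

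Of 13 BCL2 family genes, which set the threshold for cell death beside Bax and Bbc3, 10 were tested. In the knockout clone 2 were called higher and 1 lower against the control clone (median 0.02) and also against the parental line (median 0.23), each time 30.0% of those tested, beside 42.9% and 31.4% of all tested genes. Bak1, the gene of the pore protein most like BAX, was higher against both (0.62, SE 0.09, adjusted p = 0.0007, and 0.58, SE 0.09, adjusted p = 0.00154), with 166, 167 and 153 CPM in the knockout libraries, 106, 118 and 93.0 CPM in the control libraries and 112, 107 and 107 CPM in the parental libraries. Bcl2, the founding protector gene of the family, was higher against the control clone (0.53, adjusted p = 0.00822) and Bcl2l2, another protector, lower (-0.50, adjusted p = 0.0181). Bid was higher (0.43, adjusted p = 0.0164) and Bok lower (-0.32, adjusted p = 0.0370) against the parental line. Between control clone and parental line 3 were called higher and 0 lower (30.0%, beside 21.4% of all, median -0.04), Bcl2l1 (0.48), Bcl2l2 (0.81) and Bid (0.64). Bcl2a1b had 0 counts in every library. Bak1 lies on chromosome 17, whose tested genes had medians of 0.14 and 0.21.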
